A study of Mus musculus with 8 samples.

Results

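The B1/Alu and B4 families of short interspersed elements (SINEs) were followed in the small RNA of mouse sperm. Members were all repeat rows of the deposited count table whose names place them in the SINE families Alu, B1 or B4, on the sense or the antisense strand of the repeat. This rule was met by 130241 of 1010917 rows, 68368 in the Alu family and 61873 in the B4 family, and no row carried B1 as its family name, since the B1 subfamilies are listed under Alu. Of these rows 28282 were at 0 in all 8 libraries and 101959 held at least 1 count. They came from 98521 copies, 3438 of them with counts on both strands, and from 20 subfamilies. Together they held 295879 counts, which is 0.741% of all counts and 7.97% of the counts on repeats.

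The libraries were made from mature sperm of C57BL/6J mice in 2 groups of 4, labelled Control-Cessation and EtOH-Cessation, here control 1 to 4 and EtOH 1 to 4. Per the series title, the animals were studied 1 month after alcohol had been stopped, so the comparison asks whether sperm RNA of formerly alcohol-treated mice still differs from that of controls that went through the same period. The labels give no dose, age or duration of treatment. Nor do they tie libraries to animals, and every p-value here therefore measures only how these samples vary, which may be technical. The labels name sperm, whereas the description of the series' design names the caput epididymidis. Library totals ran from 4210785 to 4768713 counts in controls and from 3116421 to 6805989 in EtOH libraries, and the members held 29544 to 38217 and 17339 to 56026 of them. Summed exon fragments of 13 late germ cell and sperm genes, none of them at 0, stood at 510 to 626 CPM (counts per 1000000 counts of the library) in controls and 325 to 479 in EtOH libraries. Those of 15 epididymal epithelium genes stood at 373 to 512 and 732 to 19509 CPM, with Defb21 at 0 throughout and the highest value in EtOH 2, and those of 7 leukocyte genes at 8.49 to 16.4 and 5.58 to 22.5 CPM.

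SINEs are short retrotransposons without a protein of their own. RNA polymerase III transcribes them from a promoter inside the element, and they are copied back into the genome by the machinery of LINE elements. B1, the rodent relative of the primate Alu element, descends from 7SL RNA, the RNA scaffold of the signal recognition particle. Elements of the B4 family, which includes B4A, RSINE1 and ID_B1, join a part that resembles the ID element, a relative of the neuronal RNA BC1, to a part that resembles B1. In the male germ line repeat sequences are also transcribed within longer RNAs, and piwi-interacting RNAs (piRNAs) cut from such transcripts can carry either strand of a repeat.

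The count table names each copy by number and gives neither its position nor its sequence. The sequence of Bc1, the gene of BC1 RNA, is therefore shown for the ID-like part of the B4 family, as GENCODE places it in the GRCm38 build, at chr7:144914470-144914637 on the plus strand. Capitals mark the match to a B box (GTTCGNNNC, with N for any base), an internal promoter motif of RNA polymerase III genes, searched on both strands.
Bc1: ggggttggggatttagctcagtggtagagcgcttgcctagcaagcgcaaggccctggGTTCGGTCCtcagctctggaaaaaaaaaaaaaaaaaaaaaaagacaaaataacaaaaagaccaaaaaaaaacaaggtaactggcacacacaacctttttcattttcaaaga
In Bc1 the B box lies at bases 58 to 66, counted from 1 at the 5′ end. Of 32851 RefSeq promoter windows of 300 bases in the table for GRCm38.p6, 4.51% held these letters on either strand. These positions refer to the reference alone, because the study's own build is not given in the sources used here.

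Most members were seen only a few times. The median count over the 8 libraries was 1 for rows with any count, and 71.0% of those rows held exactly 1 count. At the other end, 175 rows reached 100 counts, 30 sense and 51 antisense in the Alu family and 55 sense and 39 antisense in the B4 family, and these held 43.6% of the members' counts. The rows nearest to that limit were B1_Mur3_copy4269 sense, RSINE1_copy10530 sense and B1_Mus1_copy58454 antisense inside it, with 102, 105 and 108 counts, and B4A_copy11692 antisense, RSINE1_copy19336 sense and RSINE1_copy71812 sense outside it, with 97, 97 and 96. The 10 most abundant rows held 41.0% of Alu sense counts, 17.9% of Alu antisense, 25.3% of B4 sense and 28.0% of B4 antisense counts.

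Both families were present on both strands in every library at a like level. No family total passed the adjusted test, which no value could pass alone with 4 libraries a group. Alu sense counts made up 0.189%, 0.158%, 0.172% and 0.168% of all counts in control 1 to 4 and 0.143%, 0.104%, 0.160% and 0.120% in EtOH 1 to 4. EtOH 3 lay above control 2, and the other EtOH libraries lay below all controls. The means were 0.171% ± 0.0129 and 0.132% ± 0.0245 (SD, n = 4 each), with a two-sided exact permutation p of 0.0571 and an adjusted p of 0.229 over 12 such values. Alu antisense counts averaged 0.174% ± 0.0146 and 0.162% ± 0.0331 (SD, n = 4 each; exact permutation p = 0.429). B4 sense counts averaged 0.215% ± 0.0224 and 0.210% ± 0.0397 (SD, n = 4 each; exact permutation p = 0.914), and B4 antisense counts 0.211% ± 0.0259 and 0.185% ± 0.0509 (SD, n = 4 each; exact permutation p = 0.4). In the B4 family and in Alu antisense the groups overlapped, with EtOH 2 and EtOH 4 lowest and EtOH 1 and EtOH 3 among or near the controls. Over the same libraries miRNAs made up 16.8% to 27.7% of counts in controls and 6.96% to 10.1% in EtOH libraries. With miRNAs left out of the total, Alu sense counts stood at 0.232%, 0.218%, 0.209% and 0.202% in controls and 0.158%, 0.112%, 0.178% and 0.129% in EtOH libraries, and all controls lay above all EtOH libraries (exact permutation p = 0.02857, the smallest that 4 against 4 allows; adjusted p = 0.114). With miRNAs kept but without the most abundant copies, Alu sense counts averaged 0.124% of all counts in controls and 0.113% in EtOH libraries. The groups then overlapped (exact permutation p = 0.371). The Alu sense copy left out, B1_Mus1_copy58276, held 12748 of 60743 Alu sense counts. Leaving out both miRNAs and this copy was not tested. In these bulk samples fewer cells of a type and less RNA per cell cannot be told apart, and the part of the epididymal and germ cell markers in these values was not tested.

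**Figure D1:**
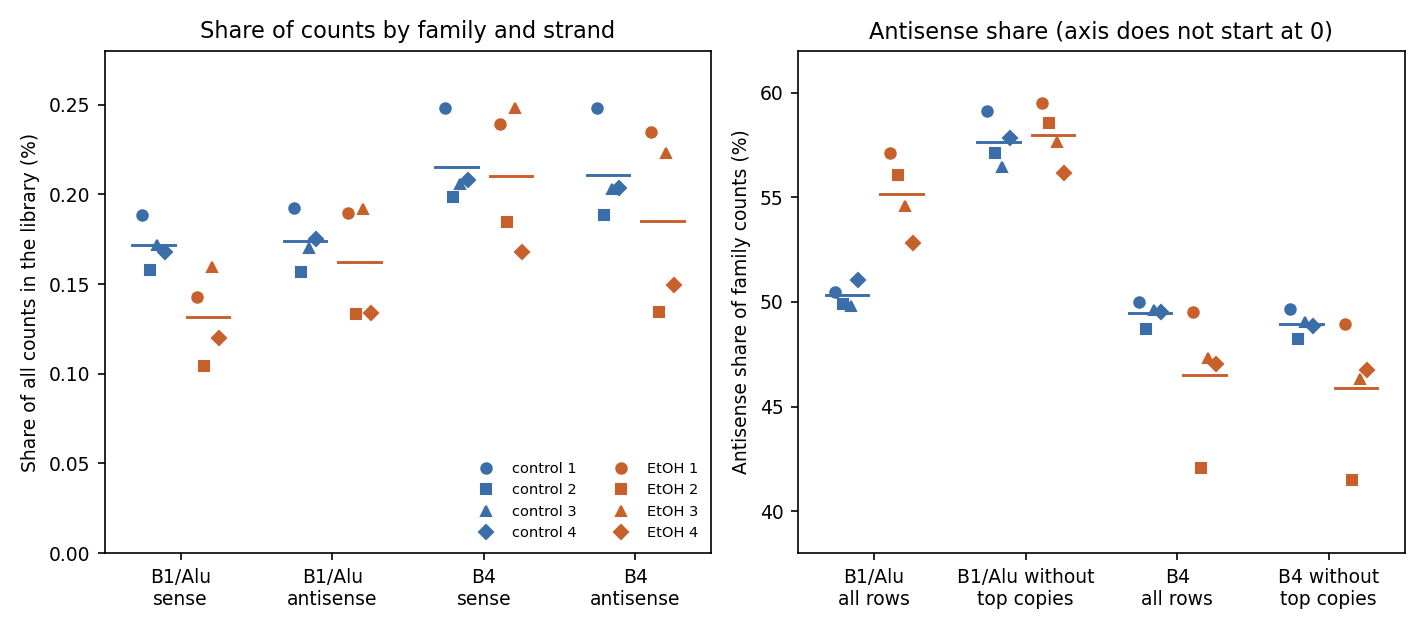
Left, share of each library's counts (%) on B1/Alu and B4 rows by strand. Right, antisense counts as a percentage of sense plus antisense counts of each family, for all rows and without the most abundant copy of each family and strand, on an axis that does not start at 0. Each marker is 1 library, blue for control and orange for EtOH, and horizontal lines are group means; the B1/Alu antisense share is higher in the EtOH libraries for all rows (50.3% and 55.1%) and 57.6% and 58.0% without the top copies.

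The balance of the strands in the Alu family differed between the groups before adjustment only, and the difference was not seen without the most abundant copies. Antisense counts were 50.5%, 49.9%, 49.8% and 51.1% of Alu counts in control 1 to 4 and 57.1%, 56.1%, 54.6% and 52.8% in EtOH 1 to 4. Every EtOH library lay above every control, with means of 50.3% ± 0.582 and 55.1% ± 1.85 (SD, n = 4 each; exact permutation p = 0.02857, adjusted p = 0.171). Without the most abundant copy of each strand, B1_Mus1_copy58276 on the sense side and B1_Mur1_copy34196 on the antisense side, the shares were 57.6% ± 1.15 and 58.0% ± 1.42 (SD, n = 4 each; exact permutation p = 0.714). For B4 the antisense share was 50.0%, 48.7%, 49.6% and 49.5% in controls and 49.5%, 42.1%, 47.3% and 47.0% in EtOH libraries (exact permutation p = 0.0857, adjusted p = 0.257). EtOH 2 was the lowest and EtOH 1 lay within the controls.

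Against all other repeats of the same strand, Alu sense counts were lower in the EtOH libraries, and this difference too was not seen without the most abundant copies. The log2 ratio was -4.71, -4.63, -4.61 and -4.65 in controls and -4.82, -5.11, -4.82 and -4.84 in EtOH libraries, a difference of -0.25 (exact permutation p = 0.02857, adjusted p = 0.171), with EtOH 2 the lowest and no overlap. Without the most abundant copies the difference was 0.01 (exact permutation p = 0.8286). Differences in the log2 ratio were 0.03 for Alu antisense, 0.10 for B4 sense and -0.07 for B4 antisense (exact permutation p = 0.8, 0.171 and 0.6). Against B2, another rodent SINE family, derived from a transfer RNA, the difference was -0.04 for Alu and 0.08 for B4 (exact permutation p = 0.657 and 0.257). None of the 12 values passed the adjustment.

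Within the families the strand balance differed widely from 1 subfamily to the next. Over all libraries the antisense share ran from 29.5% in B1_Mus1 and 33.4% in B1F2 to 75.8% in B1_Mur1 and 78.4% in B1_Mm, while in the B4 family it was 40.5% in RSINE1, 47.5% in ID_B1, 48.4% in B4 and 54.7% in B4A. The names follow age, from the old PB1 and B1F through the B1_Mur to the young B1_Mus and B1_Mm elements. The ends of the range in the Alu family rest in part on single copies. Without the most abundant copy of each subfamily and strand, an alternative added after the data were seen, the antisense share was 52.6% in B1_Mus1, 45.5% in B1F2, 72.2% in B1_Mur1 and 69.5% in B1_Mm. Counts per sense row of B1_Mus1 were 11.8 with B1_Mus1_copy58276 and 4.04 without it, beside 2.50 per antisense row with all copies. Rows with counts lay on the antisense side in 63.2% of cases in B1_Mm and in 66.3% in B1_Mus1, at the other end of the range. Of 19 member subfamilies with at least 1000 counts, 2 had antisense shares that did not overlap between groups with EtOH higher, against 4.84% of 310 repeat subfamilies, and none had control higher, against 0.968%. These were B1_Mus1, with 24.1% to 25.6% in controls and 32.3% to 38.3% in EtOH libraries, and B1_Mm, with 71.3% to 76.1% and 77.9% to 84.3%. Without the most abundant copies the groups overlapped in all 19 subfamilies, with B1_Mus1 at 50.7% to 58.1% in controls and 47.8% to 54.7% in EtOH libraries and B1_Mm at 64.2% to 69.8% and 63.8% to 76.5%. In B4A the antisense share with all copies was 53.9% to 58.0% in controls and 56.8%, 36.7%, 59.4% and 50.0% in EtOH 1 to 4, so that EtOH 2 stood far below the others.

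**Figure D2:**
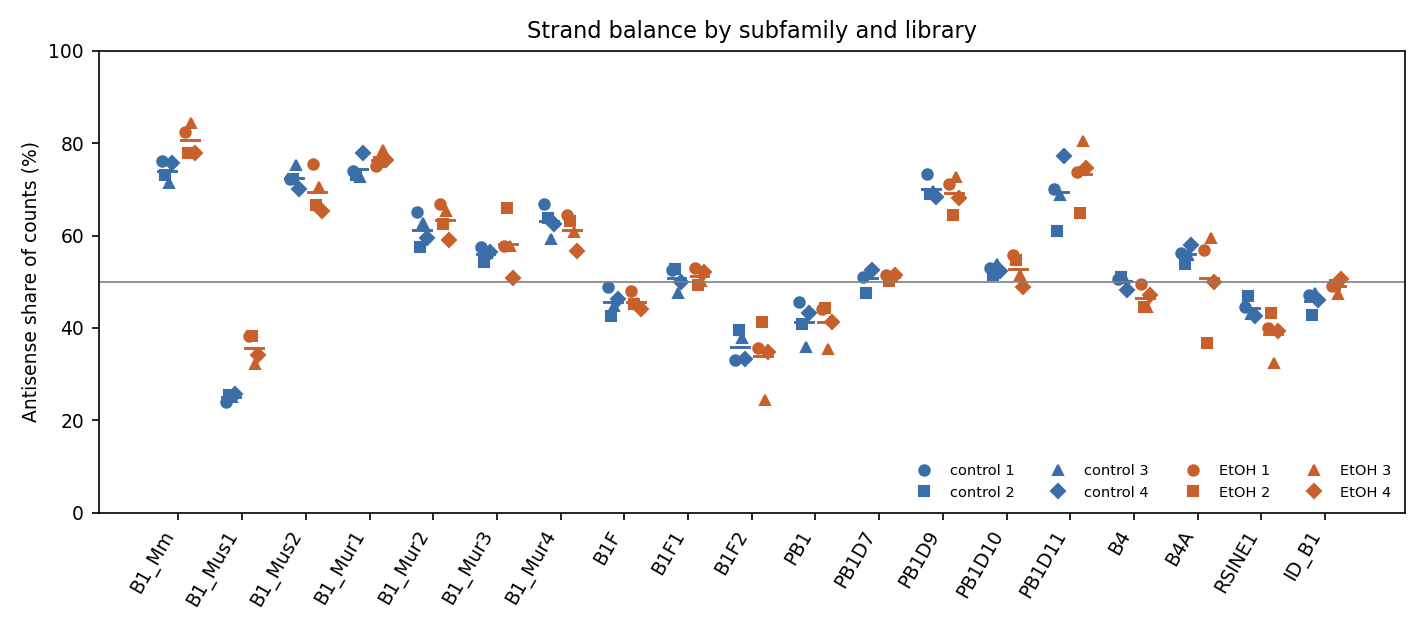
Antisense counts as a percentage of each subfamily's counts (vertical axis, 0 to 100) for 19 subfamilies, with 1 marker per library and group means as lines; the grey line marks 50%. In controls B1_Mus1 lies between 24.1% and 25.6% while B1_Mm averages 74.0% and B1_Mur1 74.5%, and EtOH 2 stands apart in B4A at 36.7%; without its most abundant copies B1_Mus1 stands at 52.6% over all libraries.

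Summed by subfamily and strand, no member passed the test in a fit with all other rows of the table. Of 38 sums tested 0 were called by edgeR's quasi-likelihood test at an adjusted p of 0.05, against 9.92% of all 9822 rows in either direction and 1.83% lower in EtOH libraries. At an unadjusted p under 0.05, 2 were lower, against 8.46% of rows, and none was higher, against 20.7%. DESeq2 called 2, B1_Mus1 and B1_Mm sense, against 19.5% of rows, and limma voom 1, B1_Mus1 sense, against 8.67%. All 38 fitted log2 fold changes were below 0, with a median of -0.25, where the median was -0.42 over 1000 other repeat sums and -0.04 over all rows. That common sign depends on the scaling and on the libraries. With library size alone 31 of 38 were below 0 and 7 above, with a median of -0.12. Without EtOH 2, 28 were below 0 (median -0.06), and with EtOH 3 and 4 alone 29 were (median -0.09). Without EtOH 3, and with EtOH 1 and 2 alone, all 38 were below 0 (medians -0.48 and -0.55). Controls lay above all EtOH libraries in 7 of 38 sums, against 7.57% of all rows. These were the sense sums of B1_Mus1, B1_Mm, PB1D10 and PB1D11 and the antisense sums of PB1, RSINE1 and B4. The share of 9.92% of rows called by edgeR was not stable. It was 0.0611% with median-of-ratios scaling and 0.0387% without EtOH 4, where 0 of the 38 sums were called as well.

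B1_Mus1 sense was the most abundant Alu sum and had the lowest p. It stood at 766, 589, 678 and 706 CPM in controls and 329, 199, 467 and 304 in EtOH libraries, with all controls higher. The log2 fold change, EtOH over control, was -1.08 ± 0.35 (SE; edgeR adjusted p = 0.0691). Of its 19414 counts 65.7% came from B1_Mus1_copy58276, and without that copy the log2 fold change was -0.29 (edgeR adjusted p = 0.628). B1_Mm sense, the sum of the youngest B1 subfamily, was at 32.2, 32.6, 38.4 and 43.4 CPM in controls and 20.5, 15.1, 27.8 and 22.3 in EtOH libraries. Its groups did not overlap, the log2 fold change was -0.77 ± 0.34 (SE; edgeR adjusted p = 0.152), and without its most abundant copy it was -0.75. PB1D11 sense had 29.0 ± 3.87 and 20.1 ± 2.11 CPM (SD, n = 4 each; log2 fold change -0.53, edgeR adjusted p = 0.289). RSINE1 antisense had 480 ± 45.1 and 349 ± 79.5 CPM (SD, n = 4 each; log2 fold change -0.46, edgeR adjusted p = 0.369), with 548 in control 1 and 454 to 465 in the other controls.

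The other abundant sums are given as levels, with group means in CPM for control and EtOH. In the Alu family the sense sums were 196 ± 12.7 and 170 ± 46.3 for B1F, 154 ± 8.16 and 121 ± 20.4 for PB1D10, 101 ± 4.44 and 84.5 ± 29.9 for B1_Mur3 and 84.9 ± 10.1 and 84.7 ± 34.0 for B1F2 (SD, n = 4 each). The Alu antisense sums were 239 ± 22.7 and 220 ± 70.6 for B1_Mur1, 228 ± 19.7 and 177 ± 44.7 for B1_Mus1, 165 ± 20.7 and 144 ± 43.9 for B1F, 172 ± 12.1 and 135 ± 28.5 for PB1D10 and 145 ± 7.43 and 112 ± 32.1 for B1_Mus2 (SD, n = 4 each). In these sums the EtOH libraries spread more widely than the controls, and EtOH 2 was the lowest library in all but PB1D10 antisense, where EtOH 4 was. The sums of the B4 family were larger. On the sense strand B4A had 651 ± 38.4 and 640 ± 74.7 CPM, ID_B1 674 ± 31.3 and 515 ± 188, RSINE1 606 ± 69.2 and 570 ± 202 and B4 332 ± 24.7 and 282 ± 82.8 (SD, n = 4 each). On the antisense strand B4A had 829 ± 76.2 and 692 ± 262, ID_B1 573 ± 54.0 and 491 ± 158 and B4 334 ± 21.6 and 246 ± 77.1 (SD, n = 4 each). B4A sense was the exception in EtOH 2, which at 710 CPM was there the highest of all 8 libraries.

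**Figure D3:**
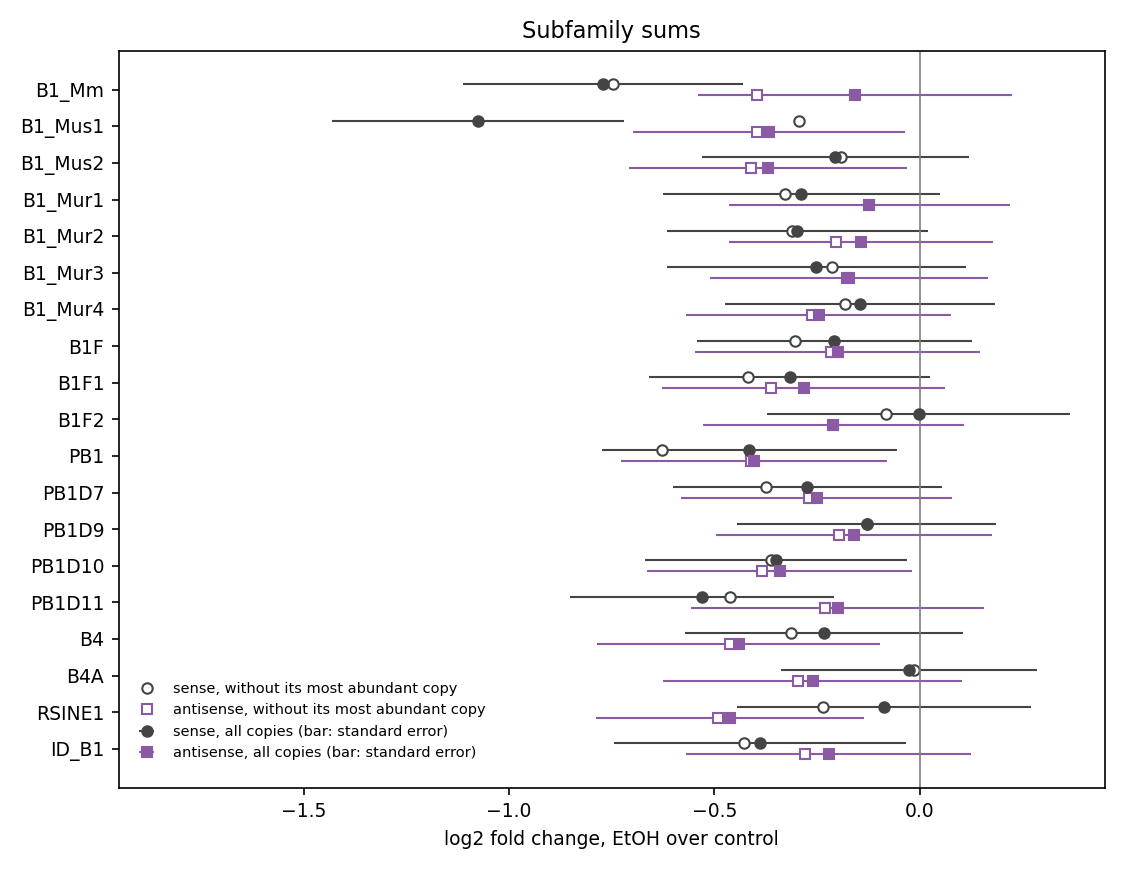
Log2 fold change, EtOH over control, of 19 subfamilies on the sense (grey circles) and antisense (purple squares) strand; filled markers use all copies and carry the standard error as a bar, open markers leave out the subfamily's most abundant copy. B1_Mus1 sense moves from -1.08 to -0.29 without its top copy, and all filled markers lie below 0, a sign that held for 31 of 38 sums with library size alone.

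Single copies with 100 or more counts gave 3 calls, all on the sense strand and all lower in the EtOH libraries. All 3 reached 100 counts only through the controls. A limit on summed counts keeps copies that are high in a single group, so the calls were not independent of it. Of the 175 copies 172 passed the filter on low counts, and 3 of these were called by edgeR, against 0.186% of all 10234 features in either direction and 0.137% lower in the EtOH libraries. The 3 copies that did not pass it, B1F_copy10372, RSINE1_copy10530 and ID_B1_copy9498, all sense, held 138, 105 and 117 counts. A further 13 members with fewer than 100 counts were tested and none of them was called. DESeq2 called 6 of the 172, against 17.1% of features, and limma voom 5, against 6.4%.

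ID_B1_copy20613 was found almost solely in control libraries. It stood at 17.5, 80.3, 24.2 and 13.5 CPM in control 1 to 4 and at 0, 0, 0.272 and 0.173 in EtOH 1 to 4, with control 2 far above the rest and no overlap. Over the libraries of a group these are 523 counts against 3, a ratio of 255 after division by the TMM-scaled library sizes (95% interval 86.8 to 1241, counting error only, and edgeR adjusted p = 0.00406). Without control 2 the ratio was 145 (49.0 to 708 at the same confidence level, counting error only). ID_B1_copy32809 had the same shape, with 13.3, 39.6, 8.84 and 3.31 CPM in controls and 0.140, 0, 0.272 and 0 in EtOH libraries. Its 250 and 3 counts give a ratio of 122 (95% interval 41.2 to 595; edgeR adjusted p = 0.00908), and 66.5 without control 2. In both copies control 2, the library with the largest miRNA share, was the highest, and the part of the miRNA share in these values was not tested. The copies belong to the same subfamily and strand, and how reads that fit several copies were treated is not given. Whether they share reads is therefore not known, and they may not be separate observations. The sum of all ID_B1 sense copies averaged 674 CPM in controls and 515 in EtOH libraries.

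PB1D10_copy10862, a copy of one of the old PB1 (proto-B1) elements, was the third call. It had 6.64, 5.50, 9.34 and 10.6 CPM in controls and 0.982, 0.272, 1.50 and 1.73 in EtOH libraries. All controls lay above all EtOH libraries, and the log2 fold change was -2.76 ± 0.48 (SE; edgeR adjusted p = 0.0413). It rests on 162 counts, 133 in controls and 29 in EtOH libraries, and leaving out any 1 control library or EtOH 4 ended the call (edgeR adjusted p = 0.0814 to 0.135). Leaving out EtOH 4 also ended that of ID_B1_copy32809 (edgeR adjusted p = 0.0814).

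The most abundant member of all, B1_Mus1_copy58276 sense, missed the threshold. It held 12748 counts and stood at 615, 493, 486 and 474 CPM in controls and 162, 103, 231 and 185 in EtOH libraries. Every control was at least 474 and every EtOH library at most 231, with control 1 above the other controls. The log2 fold change was -1.60 ± 0.37 (SE; edgeR adjusted p = 0.0525), and it passed the threshold with DESeq2 (adjusted p = 0.00014), with limma voom (adjusted p = 0.0132), and with edgeR when EtOH 2 or EtOH 3 was left out, scaled by library size alone or with EtOH 1 and 2 alone (adjusted p = 0.0334, 0.0108, 0.0448 and 0.011). The copy was not called by edgeR with median-of-ratios scaling, either change to the low-count filter, equal rows merged or EtOH 3 and 4 alone. Nor was it called when EtOH 1, EtOH 4 or any single control was left out. Among the classes of rows, the profile of B1_Mus1_copy58276 over the libraries was closest to that of the miRNA total (Pearson correlation 0.89). The median log2 fold change of miRNAs was -1.56, and the part of the miRNA share in the value of this copy was not tested. B1_Mus1_copy86305 antisense, a small copy of the same subfamily, had 7.35, 6.60, 5.05 and 3.31 CPM in controls and 1.68, 1.63, 0 and 1.91 in EtOH libraries (log2 fold change -2.12 ± 0.64, SE; edgeR adjusted p = 0.0637). ID_B1_copy6911 antisense had 4.74 ± 1.75 and 2.05 ± 1.29 CPM (SD, n = 4 each; log2 fold change -1.14, edgeR adjusted p = 0.176), with overlapping groups.

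In the other direction RSINE1_copy8330 sense had the lowest p. It stood at 46.7, 17.6, 12.9 and 12.8 CPM in controls and 114, 38.4, 65.3 and 73.9 in EtOH libraries. EtOH 2 lay below control 1, and the other EtOH libraries lay above all controls. The log2 fold change was 1.70 ± 0.52 (SE; edgeR adjusted p = 0.065), and it passed the threshold with DESeq2 (adjusted p = 0.00552), limma voom (adjusted p = 0.019) and edgeR with library size alone or when EtOH 2 or EtOH 3 was left out (adjusted p = 0.0496, 0.0244 and 0.0428). With edgeR no other alternative called this copy. These included median-of-ratios scaling, EtOH 1 and 2 alone, EtOH 3 and 4 alone, and leaving out EtOH 1, EtOH 4 or any single control. Leaving out single libraries moved the log2 fold change from 1.46 without control 4 to 2.39 without control 1. Exon fragments as a class moved the same way, from 7.07% to 7.73% of counts in controls to 9.08% to 30.5% in EtOH libraries, and whether the copy lies in an exon cannot be read from its name. The part of these fragments in its value was not tested.

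A group of B4A copies followed among the lowest p values for a higher level, and in all of them EtOH 2 was the highest library and EtOH 1 also lay above all controls. B4A_copy81800 and B4A_copy81801 carried the same counts in all 8 libraries, 17.1, 19.3, 16.9 and 23.6 CPM in controls and 32.4, 82.2, 19.5 and 11.3 in EtOH libraries. B4A_copy81804 and B4A_copy38186 had the same 302 counts in EtOH 2 as these, or 82.2 CPM, and B4A_copy41143 had 277, or 75.4 CPM. In the other libraries these 3 copies ranged from 3.12 to 30.1 CPM, and in all of the B4A copies named here EtOH 4 was below the lowest control. Log2 fold changes ran from 0.91 to 1.45 (edgeR adjusted p = 0.219 to 0.323). They were 0.21 to 0.47 without EtOH 2, and below 0 with EtOH 3 and 4 alone. Equal counts in several copies mean that reads may be shared between them, so they are not separate observations.

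**Figure D4:**
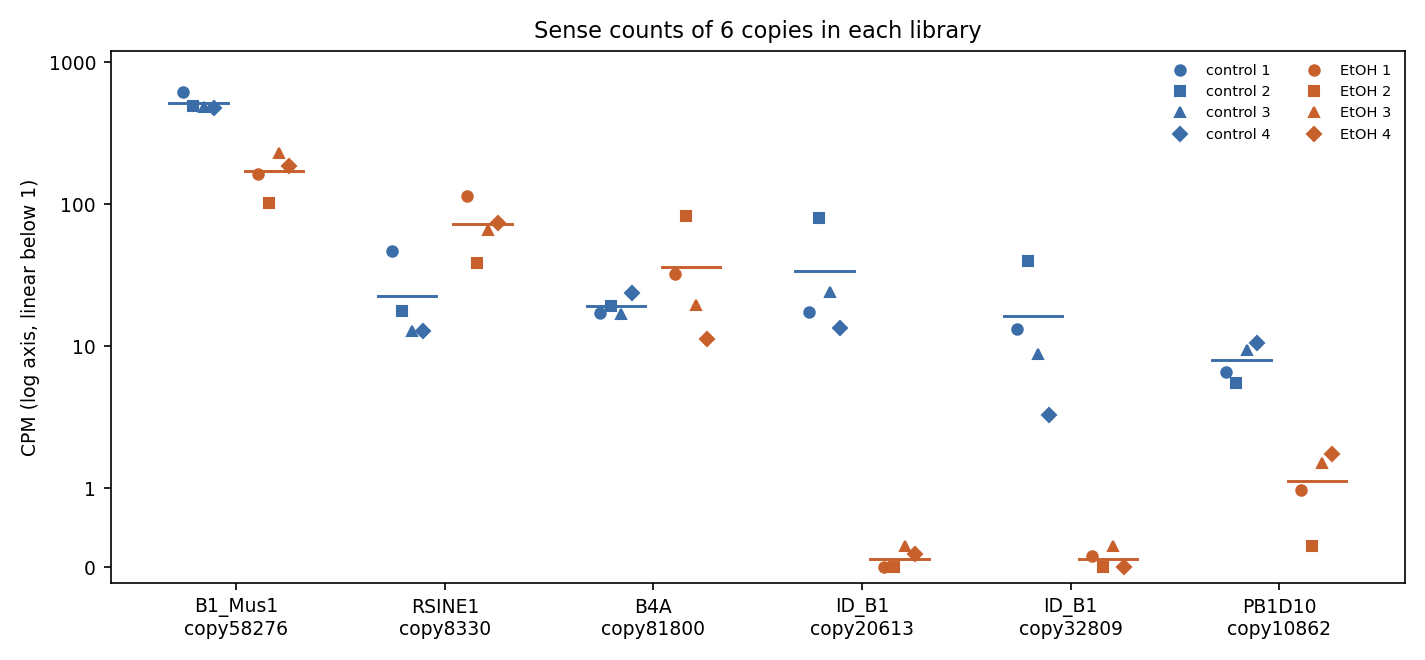
Sense counts of 6 copies in CPM (vertical axis, logarithmic above 1 and linear below it), with 1 marker per library, blue for control and orange for EtOH, and group means as lines. B1_Mus1_copy58276, both ID_B1 copies and PB1D10_copy10862 are higher in all controls; RSINE1_copy8330 is higher in 3 of 4 EtOH libraries and B4A_copy81800 highest in EtOH 2, at 82.2.

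In the remaining abundant copies the groups differed by less than the spread between EtOH libraries, and none was called. B4A_copy79398 antisense, the most abundant B4 copy, stood at 120, 94.1, 118 and 135 CPM in controls and 132, 55.0, 171 and 63.5 in EtOH libraries. EtOH 2 and EtOH 4 were below all controls, and EtOH 3 was the highest library. The same order among EtOH libraries, with EtOH 3 highest and EtOH 2 lowest, was seen in all of the abundant copies named next. In the Alu family B1F_copy22474 sense had 96.0 ± 12.7 and 83.7 ± 33.3 CPM, B1_Mus1_copy29918 sense 68.2 ± 11.2 and 55.8 ± 23.1, B1_Mur1_copy34196 antisense 57.8 ± 10.3 and 49.8 ± 22.9, B1_Mm_copy3715 antisense 42.6 ± 14.5 and 44.2 ± 19.8 and B1_Mur1_copy34197 antisense 40.6 ± 9.24 and 41.5 ± 18.7 (SD, n = 4 each). In the B4 family B4A_copy81769 antisense had 77.2 ± 14.3 and 75.1 ± 32.2 CPM, B4_copy39482 sense 73.7 ± 12.6 and 70.4 ± 29.3, B4A_copy97467 antisense 68.3 ± 16.7 and 63.1 ± 27.0 and ID_B1_copy40146 antisense 67.4 ± 18.5 and 54.1 ± 28.2 (SD, n = 4 each). Counts on piRNA clusters had the same order in the EtOH libraries, with 34.5% of all counts in EtOH 3, 25.7% in EtOH 1, 14.4% in EtOH 4 and 13.0% in EtOH 2. Of the 175 copies, 151 had a profile over the 8 libraries closest to that of the piRNA cluster total, 12 to miRNAs, 10 to exons and 2 to structural RNA, by Pearson correlation of log2(CPM + 1) among 5 classes. This likeness is a description of libraries that share their scale and carries no test.

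Over all 172 copies the fitted values lay close to 0 in the fit of all 8 libraries with TMM scaling. The median log2 fold change was -0.12, where it was -0.09 over all features, -0.14 over piRNA clusters, -1.56 over miRNAs and 0.70 over exons, and 137 of 172 lay within 0.5 of 0 on the log2 scale. By family and strand the medians were -0.28 for 29 Alu sense, -0.14 for 51 Alu antisense, -0.11 for 53 B4 sense and -0.04 for 39 B4 antisense copies. At an unadjusted p under 0.05, 6 copies were lower and 1 was higher by edgeR, against 9.15% and 17.9% of all features. In 6 copies all controls lay above all EtOH libraries, against 7.81% of all features, and in none did all EtOH libraries lie above all controls, against 7.34%. The medians depend on the libraries and the scaling. Over all tested member rows, 185 in this fit, the median was -0.12. It was -0.55 without EtOH 3 and -0.53 with EtOH 1 and 2 alone. It was 0.14 without EtOH 2, 0.24 with EtOH 3 and 4 alone and 0.09 with library size alone. Over all features the median was -0.18, -0.21, 0.09, 0.11 and 0.14 in these settings, in the same order.

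**Figure D5:**
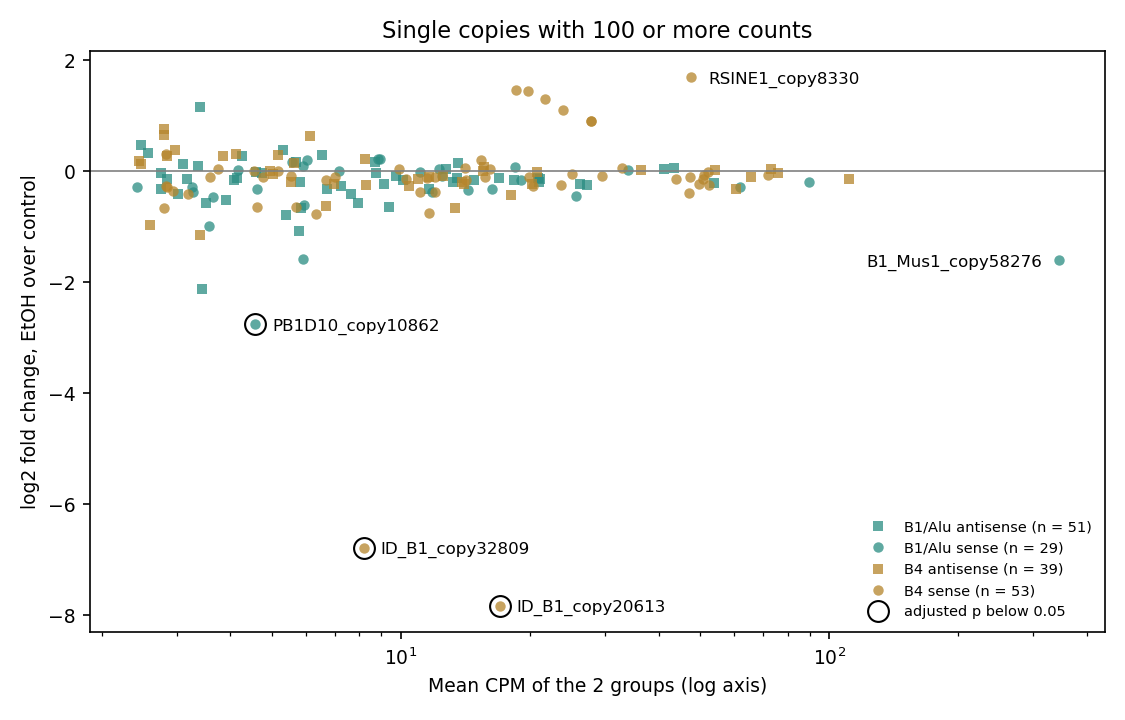
Log2 fold change, EtOH over control, against the mean CPM of the groups (log axis) for the 172 tested copies with 100 or more counts; colour gives the family, shape the strand, and black rings mark an adjusted p below 0.05. In this fit, of all 8 libraries with TMM scaling, most copies lie within 0.5 of 0, and the ringed ones are ID_B1_copy20613, ID_B1_copy32809 and PB1D10_copy10862.

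Rows of copies that fall below 100 counts were examined as sums. In the Alu family they amounted to 820 ± 50.8 CPM in controls and 722 ± 46.5 in EtOH libraries on the sense strand and 1192 ± 109 and 1053 ± 188 on the antisense strand (SD, n = 4 each). In the B4 family they amounted to 1172 ± 165 and 935 ± 150 on the sense strand and 1390 ± 224 and 1076 ± 282 on the antisense strand (SD, n = 4 each). These sums use the library totals and overlapped between groups on each strand.

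The parent RNAs and their relatives were counted in the structural RNA class, and none of their rows was called. Rows named for 7SL RNA summed to 3509, 3203, 2269 and 2458 CPM in controls and 2526, 12872, 2685 and 3186 in EtOH libraries. EtOH 2 alone was high, and the other EtOH libraries lay within the controls. Of 104 rows 16 were tested, and edgeR gave none with an unadjusted p under 0.05. Rows named for BC1 summed to 147, 114, 98.3 and 92.7 CPM in controls and 197, 97.2, 166 and 133 in EtOH libraries, with overlapping groups, and none of the 6 tested rows had an unadjusted p under 0.05. Rows named for 4.5S RNA, a rodent RNA related to B1, summed to 1750, 2043, 3482 and 3881 CPM in controls and 1227, 1265, 1972 and 1690 in EtOH libraries, with EtOH 3 above control 1. Of its 103 tested rows 68 were lower at an unadjusted p under 0.05 by edgeR, against 9.15% of all features, and none was called. These rows are near-identical copies that can share reads and are not separate observations. Among them 4.5SRNA_copy1357 had the lowest p, with 52.9 ± 22.4 and 18.8 ± 4.70 CPM (SD, n = 4 each; log2 fold change -1.49, edgeR adjusted p = 0.0541).

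Genes of SINE transcription, binding and silencing gave few counts in these small RNA libraries, and none was called. Of the exons of 9 genes for proteins of the signal recognition particle and for the La protein, which binds new RNA polymerase III transcripts, 3 were tested. The lowest p was that of an exon of Srp9, whose protein binds the Alu part of 7SL RNA, with 2.40 ± 0.765 and 5.12 ± 5.17 CPM (SD, n = 4 each; log2 fold change 1.03, edgeR adjusted p = 0.286). Of the exons of 11 RNA polymerase III subunit genes 1 was tested, that of Polr3k, with 1.61 ± 0.378 and 3.50 ± 1.73 CPM (SD, n = 4 each; log2 fold change 1.07, edgeR adjusted p = 0.134). Summed exon counts of both lists were higher in all EtOH libraries than in all controls, as were exon fragments as a class. They were 25.7 to 182 against 11.9 to 25.6 CPM for the first list and 17.8 to 92.4 against 8.60 to 16.8 for the subunits. Both sums were highest in EtOH 2, where the epididymal markers also peaked. Of 22 piRNA pathway genes found in the table, 5 exons and 1 intron were tested. An exon of Piwil2, which encodes a PIWI protein of the germ line, had 15.7 ± 3.65 and 11.9 ± 4.41 CPM (SD, n = 4 each; log2 fold change -0.38, edgeR adjusted p = 0.593), and an exon of Piwil1, the PIWI protein of spermatocytes and spermatids, 2.60 ± 0.434 and 3.23 ± 1.79 CPM (SD, n = 4 each; log2 fold change 0.35, edgeR adjusted p = 0.688).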

How the data were processed

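Small RNA of 8 mouse sperm libraries was sequenced. Per the labels, guanidinium thiocyanate and a reducing agent were used for extraction and read 1 alone was kept. The submitters' processing notes name cutadapt without a version. The deposited values are whole counts per annotated feature, and the authors applied no normalization to them. Aligner, genome build, repeat annotation, strand protocol and the treatment of reads that fit several copies are not given in the sources used, which makes the value of a single copy uncertain and sums over a subfamily the steadier unit.

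Groups follow the treatment label, table columns were paired with samples through their titles, and replicates were numbered in accession order. In R 4.3.3 with edgeR 4.0.16, rows passing filterByExpr (minimum count 10 and minimum total 15) were scaled by TMM and tested by quasi-likelihood, EtOH over control, with p-values adjusted by the Benjamini-Hochberg method across the whole table and called at 0.05. The same fit was made on a table in which copies of every repeat were summed by subfamily and strand. CPM of copies and subfamilies use the scaled library sizes, and CPM of lists and of the rows under 100 counts use library totals. Shares, antisense percentages and log2 ratios were compared by exact two-sided permutation tests over all 70 arrangements of the 8 libraries, adjusted over 12 values. Count ratios use the scaled library sizes, and their intervals are exact at 95% and cover counting error only.

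Named copies were those past the threshold, the 6 most abundant per family and up to 6 per direction with the lowest p among copies with 100 or more counts. Named subfamilies were the 5 most abundant per family and strand, those past the threshold and up to 4 per direction with the lowest p, and each related list gave up to 3 rows. A copy that this rule names is not reported here. Members, lists and rules were chosen with earlier results of these data known. Alternatives were median-of-ratios scaling, library size alone, DESeq2 1.42.0, limma 3.58.1 voom with quality weights, unfiltered rows, a mean count of 10 or more, leaving out single libraries, EtOH libraries split by the form of their identifier, rows of equal counts merged, families without their most abundant or low copies, and totals without miRNAs. The sums and antisense shares without the top copy of each subfamily and the ratio to piRNA clusters were added after the data were seen. The single-feature fits by edgeR, DESeq2 and limma voom were tested on simulated counts with known changes.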

Additional observations from a re-analysis of the deposited data

Results flagged for a closer look

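In 10 of 110 groups of 4 libraries 1 library lay far from the other 3, by Dixon's criterion on the gap relative to the range, and chance gives this in about 1 group in 20. EtOH 2 stood below the other EtOH libraries in the log2 ratio of Alu sense counts to other repeats (-5.11). EtOH 3 stood below the others at 0 CPM for B1_Mus1_copy86305 antisense.

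The other groups were controls. Control 1 was the highest for B1_Mus1_copy58276 sense (615 CPM), RSINE1_copy8330 sense (46.7 CPM) and the RSINE1 antisense sum (548 CPM). Control 2 was the highest for ID_B1_copy20613 sense (80.3 CPM) and for the log2 ratio of B4 to B2 counts (0.43). Control 4 was the lowest for the PB1D10 sense sum (142 CPM), for B4A_copy38186 sense (7.72 CPM) and for B4A_copy41143 sense (4.19 CPM).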

How the results depend on the processing

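Counts here are over all tested member rows, 185 by edgeR, which include 13 with fewer than 100 counts. Of these 3 were called, against 0.186% of all features, and ID_B1_copy20613 was among the calls in all alternatives run. The count was 5 with library size alone (7.99% of features), 8 with DESeq2 (17.1%; 6 of them with 100 or more counts), 5 with limma voom (6.4%), 14 with no filter on low counts (of 101959 members, and 0.189% of features), 14 with EtOH 1 and 2 alone (18.9%) and 1 with EtOH 3 and 4 alone (0.153%). It was 1 to 13 when single libraries were left out, lowest without EtOH 4 (0.0277%) and highest without EtOH 3 (20.1%). PB1D10_copy10862 was not called with median-of-ratios scaling or a mean count of at least 10 (edgeR adjusted p = 0.0612 and 0.0656), nor, like ID_B1_copy32809, with EtOH 3 and 4 alone (edgeR adjusted p = 0.0928 and 0.0714). Subfamily sums gave 0 calls, but 2 with DESeq2 (19.5% of rows), 1 with limma voom (8.67%), 1 with EtOH 1 and 2 alone (21.1%), and 0 to 1 when single libraries were left out, with the call without EtOH 3 (22.3%). When single controls were left out, edgeR called 0.0487% to 0.116% of all rows and 0 of the sums. With EtOH 3 and 4 alone the log2 fold changes of the B4A copies turned to -0.19 for B4A_copy81800 and B4A_copy81801, -0.56 for B4A_copy81804, -0.49 for B4A_copy38186 and -0.28 for B4A_copy41143. Of 27 copies and sums given as levels, 16 had a fitted sign that differed in at least 1 alternative.

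Some differences, EtOH minus control, turned sign. Without the most abundant copies they were 0.00937 for the log2 ratio of Alu sense to other repeats and 0.0819 for Alu to B2. With only copies of 100 or more counts they were 0.00236 percentage points for Alu antisense, 0.0188 for B4 sense and 0.0060 for B4 antisense shares, and 0.18 for the log2 ratio of B4 antisense. With those copies alone others grew without passing the adjustment: the Alu antisense percentage from 4.83 to 10.8 points (exact permutation p = 0.0286, adjusted p = 0.171), and the log2 ratios of Alu sense from -0.25 to -0.50, of B4 sense from 0.10 to 0.37, of Alu antisense from 0.03 to 0.14, of Alu to B2 from -0.04 to -0.17 and of B4 to B2 from 0.08 to 0.36. In this setting the other repeats and B2 were not limited to copies of 100 or more counts. B1_Mus1_copy58276 held 12748 of the 30010 Alu sense counts there, and of 60743 over all rows. Against piRNA clusters the log2 ratios were -0.0969 for Alu antisense and -0.0263 for B4 sense. When single libraries were left out, the B4 sense share ranged from -0.0176 to 0.00909, the log2 ratio of Alu antisense from -0.0500 to 0.13, that of B4 antisense from -0.13 to 0.0155 and that of Alu to B2 from -0.0839 to 0.00289. Where a construction such as fewer samples or rows does not show it, the cause was not tested. With 1 library left out the smallest permutation p is 0.0571. Copies with few counts limit what can be seen: most rows held 1 count, and only 185 member rows could be tested. No paired analysis was possible because the labels give no replicate numbers.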
